A study of Caenorhabditis elegans with 24 samples.

Results

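The effect of losing ceh-60 was compared between adult day 1 and adult day 4 of the nematode Caenorhabditis elegans, gene by gene, to find genes that responded on 1 day only or in opposite directions on the 2 days. The comparison used 12 of the 24 libraries of the study, 3 in each of 4 groups, chosen by genotype and age: wild type animals of strain N2 and ceh-60(ok1485) mutants of strain DLS357, each on day 1 and on day 4. For every gene the log2 fold change of mutant over wild type on day 1 was subtracted from that on day 4. This quantity is called the day difference below. A positive day difference means that the mutant level relative to wild type was higher on day 4 than on day 1. RNA came from whole animals grown at 20 °C on the bacterial strain OP50 after synchronisation as larvae, and adults kept to day 4 were moved to fresh plates daily. The other 12 libraries, all of day 1, carry a pqm-1 allele with or without ceh-60(ok1485) and were used for 1 further comparison.

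CEH-60 is a homeodomain transcription factor of the PBX family. In the adult intestine it is known to work with the MEIS family protein UNC-62 to switch on the vitellogenin genes, whose products carry yolk lipid to the oocytes, and to hold down genes of stress and pathogen responses. PQM-1, a zinc finger transcription factor, is known to act on many of the same intestinal genes and, with the FOXO protein DAF-16, on genes that respond to insulin signalling. Hermaphrodites lay most of their self progeny in the first days of adulthood, so that the 2 ages fall into different stages of reproduction.

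Between 21031225 and 32598349 counts were assigned to genes in the 12 libraries, and 13137 of 46778 genes had enough counts to be tested. Levels are in CPM, the share of a library's counts scaled to a common total and adjusted between libraries, and are given for replicates 1, 2 and 3 in that order. A gene was called when edgeR's quasi-likelihood test gave a Benjamini-Hochberg adjusted p under 0.05 over all genes tested, and log2 fold changes carry their standard error. Whether the 3 replicates came from separate cultures is not stated, and a p-value here sets an effect against the spread between such samples, which may be technical. The labels give no batch. In whole animals fewer cells of a type and less RNA per cell cannot be told apart. The allele was visible in the counts: ceh-60 (on chromosome X from 6522596 to 6530148, reverse strand, in WormBase release 260, as in the count table) stood at 6.77, 5.57 and 6.64 CPM in wild type day 1 and 1.86, 1.02 and 1.27 in the mutant. On day 4 it stood at 4.59, 5.09 and 4.65 CPM in wild type and 0.830, 0.636 and 0.611 in the mutant. Its day difference of -0.59 ± 0.29 was not called (adjusted p = 0.321). ceh-60 shares exon bases with ets-4 on the other strand, and counting ignored strand and left out reads over both genes.

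Markers of the main tissues were present in every group. The summed level of 27 intestine genes was 4174 to 4518 CPM in wild type day 1, 6482 to 7745 in ceh-60 day 1, 2519 to 2620 in wild type day 4 and 5652 to 5975 in ceh-60 day 4. Replicate 3 of ceh-60 day 4 stood apart, with a summed level of 29 larval moult genes of 266.1 CPM against 150.2 to 177.5 in the other libraries of day 4. The 35 major sperm protein genes, which mark sperm and are known to lie in near-identical copies, summed to 0.127 to 0.719 CPM in ceh-60 day 4 against 1.73 to 15.7 in wild type day 4. On day 1 they summed to 4.40 to 25.01 CPM in wild type and 4.33 to 24.7 in ceh-60. Of these genes 19 of 35 were at 0 in all 3 libraries of ceh-60 day 4, and 5 or 6 were in each other group.

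The day difference was called for 531 of 13137 genes (4.04%), 239 with a higher effect on day 4 (1.82%) and 292 with a lower one (2.22%). These 531 genes fell into 3 kinds: 187 were changed in the mutant on day 1 only, 134 on day 4 only and 210 on both days. Of the last kind 35 had opposite signs on the 2 days, 102 moved in 1 direction with the larger effect on day 1 and 73 with the larger effect on day 4. The 102 became 62 to 67 without replicate 3 of wild type day 1, replicates 1 or 2 of wild type day 4, or replicates 1 or 2 of ceh-60 day 4, and the 73 became 42 to 47 without those or replicate 1 of wild type day 1. Missing the threshold on 1 day did not by itself show a difference between the days: 1653 genes were called on day 1 and not on day 4, and 187 of them (11.3%) had a called day difference. For the converse it was 134 of 1500 genes (8.93%). Day 1 by itself had 3354 called genes (25.5%), 16.1% higher and 9.46% lower in the mutant. Day 4 had 3201 (24.4%), 16.1% higher and 8.24% lower. At a difference of at least 2-fold, 236 of the 531 genes remained, 92 higher and 144 lower on day 4.

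The number of called differences rested on the small groups. Without replicate 3 of wild type day 1 it was 306, and leaving out replicate 2 of ceh-60 day 4 gave 324. Of wild type day 4, leaving out replicate 2 gave 338 and replicate 1 gave 343. Without any 1 of the 12 libraries, 239 of the 531 genes kept their call each time, and 169 kept their class as well. Of genes higher in the mutant on day 1 only, 54 of 133 kept their class each time, and of those lower, 8 of 54. For day 4 only it was 20 of 92 higher and 7 of 42 lower. The 239 higher differences became 116 to 148 without replicate 1 or 3 of wild type day 1, any library of wild type day 4, or replicates 1 or 2 of ceh-60 day 4. The 292 lower ones became 169 when replicate 3 of wild type day 1 was left out and 191 for replicate 1 of ceh-60 day 1. Leaving out the library that stood apart, replicate 3 of ceh-60 day 4, gave 567 called genes. The 3354 calls of day 1 alone became 2090 and 2100 when replicate 2 or replicate 3 of wild type was left out, and 1899 for replicate 1 of the mutant. Except for vit-2, vit-3, cyp-35A5, clec-174, spp-12, R09E10.6, rpl-30, rps-13 and rps-17, whose libraries are named with them, the genes with a called day difference in the paragraphs on classes and lists kept that call without each library in turn. Other named genes that lost it are given in the closing section. The plot of the effects on the 2 days sets the classes beside each other.

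**Figure D1:**
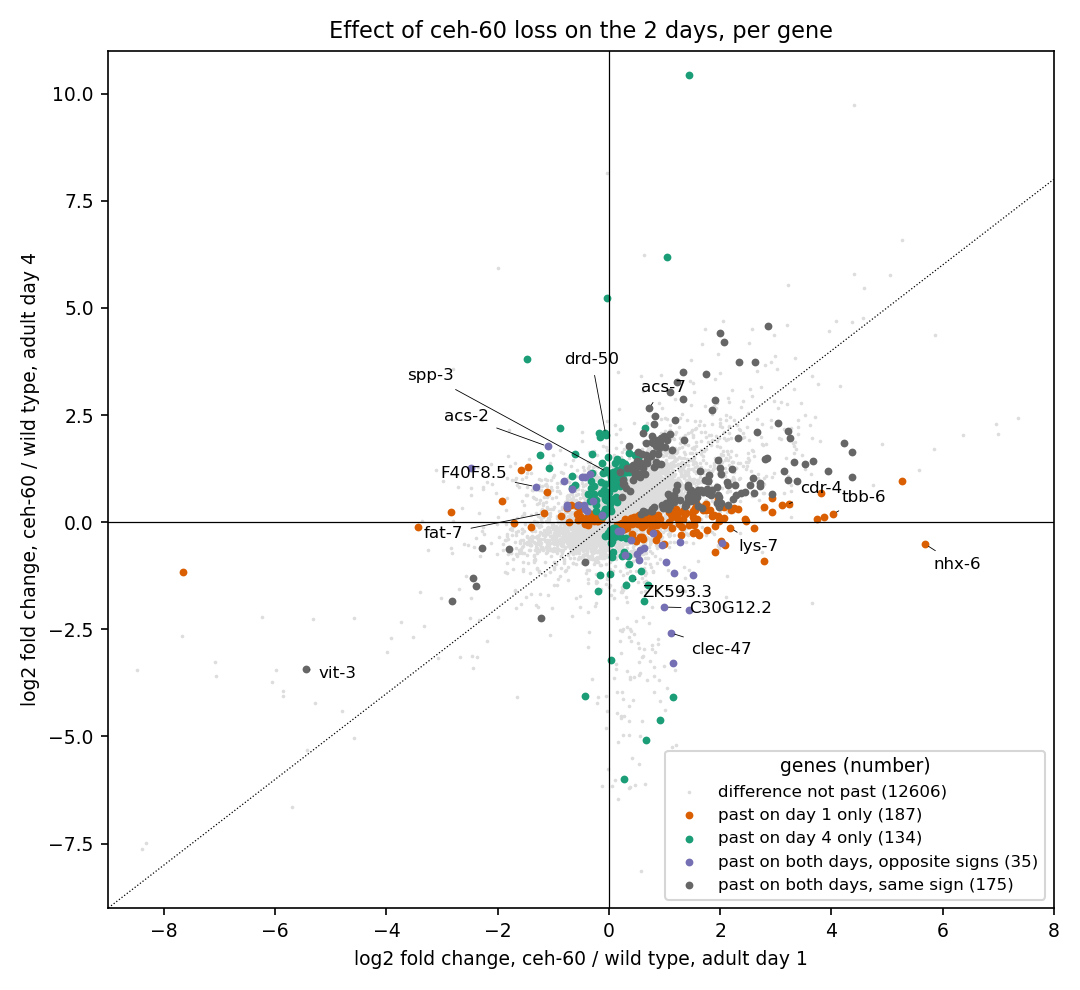
Log2 fold change of ceh-60 over wild type on adult day 1 (x axis) and adult day 4 (y axis) for 13137 genes, 1 point a gene, with the dotted line where both effects are equal. Coloured points are the 531 genes with a called day difference, and the 35 genes with opposite signs lie above and left of the origin or below and right of it.

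Genes higher in the mutant on day 1 only formed the largest class, with 133 genes. Their median log2 fold change was 1.11 on day 1 and 0.02 on day 4. For 82 of them the 95% interval on day 4 lay within 1.5-fold of no change. The class counted 75 genes once replicate 3 of wild type day 1 was left out, and 87 for replicate 1 of ceh-60 day 1. Among those named are genes of defence against bacteria.

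The lysozyme gene lys-7 (WBGene00003096, chromosome V, 3481421 to 3482600, reverse strand) stood at 40.3, 24.9 and 31.6 CPM in wild type day 1 and at 167, 139.5 and 133 in the mutant. By day 4 it stood at 608, 644 and 822 CPM in wild type and 613, 627 and 652 in the mutant. The genotypes were fully apart on day 1 and overlapped on day 4, with log2 fold changes of 2.18 ± 0.15 and -0.13 ± 0.13 and a day difference of -2.32 ± 0.20 (adjusted p = 4.27e-05). The level of lys-7 rose with age in wild type by 4.42 on the log2 scale and in the mutant by 2.10.

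spp-1 (WBGene00004986, chromosome III, 10355122 to 10355982, reverse strand), which encodes a saposin-like pore-forming protein that kills bacteria, stood at 23.4, 25.6 and 23.99 CPM in wild type day 1 and 61.6, 58.7 and 64.004 in the mutant. On day 4 the levels were 43.2, 51.02 and 50.6 CPM in wild type and 49.7, 50.5 and 52.1 in the mutant, with overlap. Its log2 fold change was 1.34 ± 0.07 on day 1 and 0.07 ± 0.06 on day 4 (interval -0.07 to 0.21), a day difference of -1.26 ± 0.09 with adjusted p = 1.78e-05. The gene shares exon bases with umps-1 on the same strand, and reads that overlap 2 genes were not counted.

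dod-19, named for its place downstream of DAF-16 (WBGene00022644, chromosome V, 411782 to 414760, reverse strand), was at 113, 103 and 99.7 CPM in wild type day 1 and 323, 311 and 281 in the mutant. On day 4 it was at 325, 339 and 425 CPM in wild type and 327, 349 and 362 in the mutant. The mutant changed by 0.18 on the log2 scale between the days and wild type rose by 1.79 up to the mutant level. The log2 fold change went from 1.54 ± 0.09 to -0.07 ± 0.09 (day difference -1.61 ± 0.13, adjusted p = 1.86e-05).

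cdr-4, a gene induced by cadmium (WBGene00010470, chromosome V, 12407428 to 12408592, reverse strand), went from 13.1, 14.1 and 12.1 CPM in wild type day 1 to 141, 129 and 103 in the mutant. By day 4 it was at 43.1, 31.8 and 46.2 CPM in wild type and 68.7, 41.2 and 52.7 in the mutant, where the groups overlapped. Here both genotypes moved towards each other with age, wild type by 1.62 and the mutant by -1.20 on the log2 scale, which gave a day difference of -2.81 ± 0.26 (adjusted p = 6.73e-05). pals-24, a gene of the response to intracellular pathogens, had log2 fold changes of 1.51 ± 0.10 on day 1 and 0.26 ± 0.09 on day 4. cdr-4 left the class without replicate 2 of ceh-60 day 4 and pals-24 without replicate 3 of wild type day 1.

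Among genes of a mean level of at least 5 CPM, the largest day differences of this class were in nhx-6 and tbb-6, whose mutant libraries of day 1 varied widely. nhx-6, a sodium-proton exchanger gene, stood at 10.1, 39.3 and 5.26 CPM in the mutant on day 1 against 0.480, 0.135 and 0.440 in wild type. On day 4 it was at 1.10, 0.736 and 1.25 CPM in wild type and 0.830, 0.551 and 0.719 in the mutant, and its day difference was -6.20 ± 1.16. tbb-6, a beta-tubulin gene known to be induced by mitochondrial stress, followed the same order of libraries, with 45.1, 82.6 and 22.96 CPM in the mutant on day 1 and 3.23, 3.82 and 2.15 in wild type. In both genes replicate 2 of ceh-60 day 1 was the highest library, and all 3 mutant libraries of day 1 lay above all of wild type.

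The day difference of tbb-6 was -3.84 ± 0.56. dod-3, another gene downstream of DAF-16, went from 2.79 ± 0.47 to -0.92 ± 0.33, and oac-14, of a family of acyltransferase-like genes, from 3.82 ± 0.39 to 0.69 ± 0.25. Both rose steeply with age in wild type, dod-3 from 1.18, 0.673 and 0.635 to 14.6, 14.6 and 19.8 CPM and oac-14 from 0.873, 1.26 and 1.51 to 25.7, 18.1 and 43.6 CPM. dod-3 left the class without replicate 2 or 3 of ceh-60 day 1, and oac-14 without replicate 3 of wild type day 4 or replicate 2 of ceh-60 day 4.

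**Figure D2:**
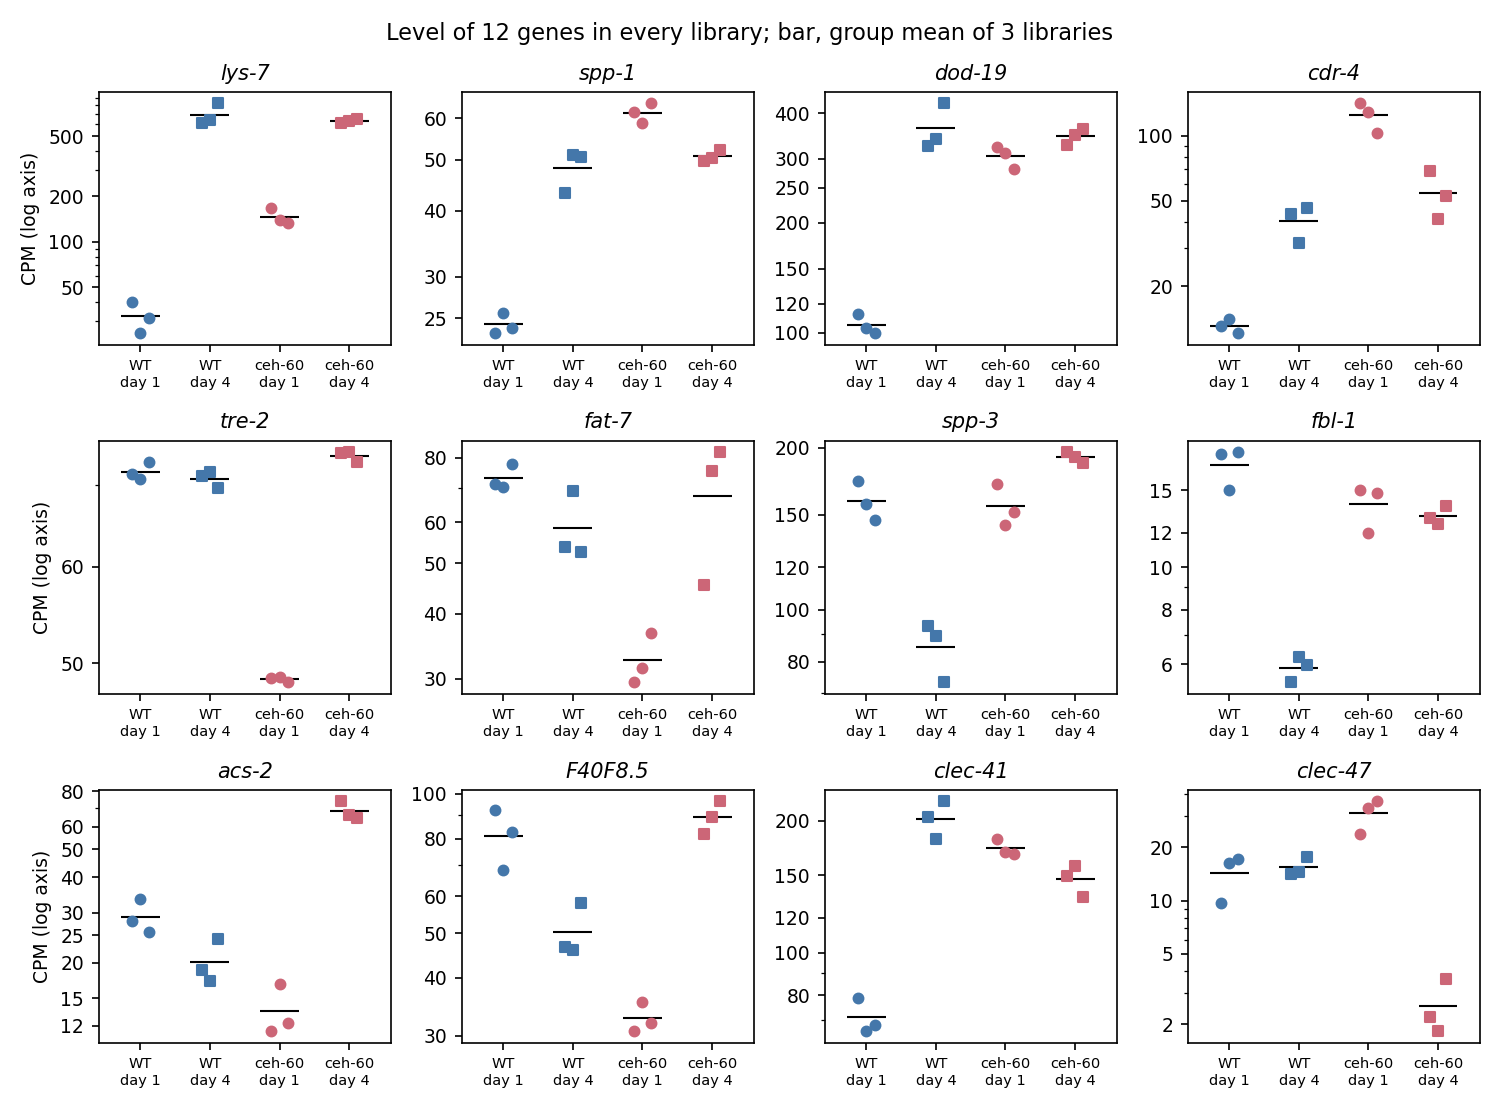
Level in CPM (log axis) of 12 genes in each of the 12 libraries, with wild type (WT) in blue, ceh-60 in red, circles for day 1, squares for day 4 and a bar at the mean of 3 libraries. The top row shows genes higher in the mutant on day 1 only, the middle row tre-2 and fat-7 (lower on day 1 only) and spp-3 and fbl-1 (higher on day 4 only), and the bottom row genes with opposite signs.

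Genes lower in the mutant on day 1 only numbered 54, with smaller effects: a median log2 fold change of -0.39 on day 1 and 0.12 on day 4. tre-2, which encodes a trehalase, an enzyme that splits the sugar trehalose, had the smallest p of them. It stood at 71.4, 70.8 and 73.1 CPM in wild type day 1 and at 48.6, 48.8 and 48.3 in the mutant (WBGene00006608, chromosome IV, 6876737 to 6883461, reverse strand). On day 4 the levels were 71.2, 71.7 and 69.6 CPM in wild type and 74.3, 74.4 and 73.0 in the mutant. Wild type was level between the days (-0.02 ± 0.03) and the mutant rose (0.61 ± 0.03), for a day difference of 0.62 ± 0.05 (adjusted p = 1.86e-05).

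fat-7, a stearoyl-CoA desaturase gene that makes oleic acid (WBGene00001399, chromosome V, 7151353 to 7153146, reverse strand), fell in the mutant on day 1 from 71.1, 70.1 and 77.7 to 29.5, 31.5 and 36.8 CPM. By day 4 it was at 53.8, 69.0 and 52.5 CPM in wild type and at 45.4, 75.4 and 81.8 in the mutant, where the libraries overlapped widely. The log2 fold change was -1.17 ± 0.18 on day 1 and 0.20 ± 0.17 on day 4 (interval -0.17 to 0.58), an interval that also holds sizeable responses on day 4, and the gene left the class without replicate 1 of ceh-60 day 4. calu-1, the calumenin gene, fell by 0.87 on the log2 scale on day 1, from 165, 127 and 164 to 81.6, 76.3 and 91.9 CPM, and had 0.14 ± 0.12 on day 4. vrp-1 fell by 0.58 and C53H9.2 by 0.31 on day 1, and their values on day 4 were 0.19 ± 0.09 and 0.05 ± 0.04. In calu-1, vrp-1 and C53H9.2 the wild type level itself fell between the days, by 1.61, 1.05 and 0.73 on the log2 scale. Of the 54 genes, 9 kept a called day difference without each library in turn. The class counted 15 genes without replicate 2 of wild type day 4, and 19 to 35 without replicate 1 or 3 of wild type day 4, any library of wild type day 1, replicates 1 or 2 of ceh-60 day 1, or replicates 1 or 2 of ceh-60 day 4.

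Genes higher in the mutant on day 4 only numbered 92, with median log2 fold changes of -0.02 on day 1 and 0.94 on day 4. spp-3 (WBGene00004988, chromosome X, 7314969 to 7315353, reverse strand), of the same saposin-like family as spp-1, stood at 174, 157 and 147 CPM in wild type day 1 and 172, 143 and 152 in the mutant. On day 4 it stood at 93.2, 89.4 and 73.2 CPM in wild type and 196, 193 and 187 in the mutant. The groups overlapped on day 1 and were apart on day 4, with a log2 fold change of 1.17 ± 0.09 then and a day difference of 1.20 ± 0.12 (adjusted p = 0.000143). spp-1 and spp-3 thus belong to 1 family and were raised on different days.

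fbl-1 (WBGene00001403, chromosome IV, 9540808 to 9546250, forward strand), which encodes fibulin, a protein of the extracellular matrix, was at 18.2, 14.99 and 18.3 CPM in wild type day 1 and 15.03, 12.01 and 14.8 in the mutant. On day 4 wild type was at 5.46, 6.24 and 5.98 CPM and the mutant at 12.9, 12.6 and 13.8. Wild type changed by -1.54 on the log2 scale between the days and the mutant by -0.09, and the day difference was 1.45 ± 0.15 (adjusted p = 0.000191). The effect on day 1 was -0.30 ± 0.11 (adjusted p = 0.054), close to the threshold, and without replicate 2 of wild type day 1 fbl-1 left the class.

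The aspartyl protease gene asp-4 took another course. It stood at 389.8, 422 and 369.8 CPM in wild type day 1 and 357, 402 and 337 in the mutant, and on day 4 at 519.6, 545 and 544 in wild type and 879, 874 and 869.9 in the mutant. asp-4 rose with age in both genotypes and rose more in the mutant, for a day difference of 0.81 ± 0.09, and left the class without replicate 2 of ceh-60 day 1. drd-50, named for its fall under dietary restriction, rose steeply between the days, from 2.79, 1.83 and 3.75 to 45.5, 62.9 and 61.3 CPM in the mutant and from 3.10, 2.07 and 3.47 to 12.01, 14.8 and 14.5 in wild type, with a day difference of 2.09 ± 0.32.

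atic-1, of purine synthesis, had a day difference of 0.84 ± 0.10 and dmd-7, of the DM domain transcription factor family, one of 0.61 ± 0.07. Their log2 fold changes were -0.09 ± 0.07 and -0.08 ± 0.05 on day 1 and 0.75 ± 0.07 and 0.54 ± 0.05 on day 4. The C-type lectin gene clec-174 was close to 0 outside ceh-60 day 4: it stood at 15.4, 23.998 and 22.1 CPM there and at most at 0.332 elsewhere. Its day difference of 5.15 ± 1.13 depends on those low levels, and the call was lost without replicate 2 or replicate 3 of wild type day 1 (highest adjusted p = 0.214). The cytochrome P450 gene cyp-35A5 (2.17 ± 0.53) lost its call without any of 10 libraries, that is all but replicates 2 and 3 of ceh-60 day 1, with a highest adjusted p of 0.11. The class as a whole counted 38 genes without replicate 1 of wild type day 4 and up to 56 without replicates 1 or 3 of wild type day 1, replicates 2 or 3 of wild type day 4, replicate 2 of ceh-60 day 1 or replicates 1 or 2 of ceh-60 day 4.

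Genes lower in the mutant on day 4 only numbered 42, with medians of 0.10 on day 1 and -0.46 on day 4. acdh-1, a mitochondrial acyl-CoA dehydrogenase gene known to answer to vitamin B12 in the diet, was the most abundant of those named. It stood at 1104, 945 and 981 CPM in wild type day 1 and 1375, 1186 and 1291 in the mutant. By day 4 it stood at 529, 534 and 346 CPM in wild type and 295, 286 and 228 in the mutant (WBGene00016943, chromosome I, 6497436 to 6499560, forward strand). The mutant lay above wild type in all libraries of day 1, though not by enough to be called (0.35 ± 0.14, adjusted p = 0.0871), and below it in all of day 4 (-0.80 ± 0.14, adjusted p = 0.00125). Its day difference was -1.15 ± 0.20 (adjusted p = 0.00598). acdh-1 left the class without replicate 3 of wild type day 4, and shares exon bases with C55B7.3 on the same strand.

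Y105C5B.15 went from 77.4, 72.3 and 77.5 CPM in wild type day 4 to 35.4, 34.3 and 27.2 in the mutant, with -1.23 ± 0.08 on day 4 and -0.16 ± 0.08 on day 1. ZK593.3 had -1.31 ± 0.24 on day 4 and 0.41 ± 0.21 on day 1, and left the class without replicate 3 of wild type day 4. W09C3.7 and F31E8.4 rose with age in both genotypes, and less in the mutant, by 0.54 against 1.08 and by 0.46 against 0.91 on the log2 scale. Their day differences were -0.54 ± 0.11 and -0.45 ± 0.09.

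The most negative day differences of this class were in genes of low level. R09E10.6, chosen after its values were seen, stood at 0.275, 2.001 and 1.12 CPM in wild type day 4 and at 0.113, 0.0424 and 0.0359 in ceh-60 day 4. It stood at 1.75, 2.33 and 0.782 CPM in wild type day 1 and 4.77, 1.02 and 5.17 in ceh-60 day 1. The summed level of the 21 tested major sperm protein genes ranked the 3 libraries in the same order as R09E10.6 in every group but ceh-60 day 4, where both were below 1 CPM. The call of R09E10.6 was lost without any library other than replicate 2 of wild type day 1, replicates 1 and 3 of wild type day 4 and replicate 2 of ceh-60 day 1 (highest adjusted p = 0.0851). The sperm sum was 1.57, 13.8 and 5.07 CPM in wild type day 4 and 18.03, 4.202 and 22.9 in ceh-60 day 1. No major sperm protein gene of the 21 tested had a called day difference, although all 21 had a negative one and 9 were called lower in the mutant on day 4 (8.24% of all genes). The part of sperm RNA in the falls of day 4 was not tested. The class counted 19 genes without replicate 2 of wild type day 4, 21 without replicate 1 or replicate 3 of wild type day 1, 27 without replicate 1 of ceh-60 day 1 and 71 without replicate 3 of ceh-60 day 4.

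Opposite responses were found in 35 genes: 19 were higher in the mutant on day 1 and lower on day 4, and 16 were lower on day 1 and higher on day 4. Of the 35, 31 kept a called day difference without each library in turn, and 13 kept a call on both days as well. The counts were 11 of the first kind without replicate 1 of ceh-60 day 1 and 9 of the second without replicate 2 of ceh-60 day 4. Among those of a mean level of at least 5 CPM that went from lower to higher, acs-2 had the largest day difference.

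acs-2 (WBGene00009221, chromosome V, 15567394 to 15569889, forward strand) encodes an acyl-CoA synthetase that readies fatty acids for oxidation in mitochondria and is known to be induced by fasting. It stood at 27.99, 33.4 and 25.5 CPM in wild type day 1 and 11.5, 16.9 and 12.24 in the mutant. On day 4 it stood at 18.8, 17.2 and 24.2 CPM in wild type and 73.7, 65.9 and 64.4 in the mutant. No library of 1 genotype overlapped the other on either day, and the mutant was the lower one on day 1 (-1.10 ± 0.16, adjusted p = 0.000192) and the higher one on day 4 (1.77 ± 0.15, adjusted p = 1.71e-06). Its day difference was 2.86 ± 0.21 (adjusted p = 1.78e-05).

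F40F8.5 (WBGene00009578, chromosome II, 11132861 to 11135140, reverse strand) had the same signs, at 92.3, 68.5 and 82.7 CPM in wild type day 1 against 30.7, 35.4 and 32.03 in the mutant. By day 4 it was at 46.7, 46.1 and 58.2 CPM in wild type and 81.9, 89.2 and 96.2 in the mutant, a day difference of 2.14 ± 0.16 (adjusted p = 1.78e-05). Wild type fell with age by 0.69 on the log2 scale while the mutant rose by 1.45. asah-2, an acid ceramidase gene, went from -0.67 ± 0.09 on day 1 to 0.78 ± 0.09 on day 4, and the cuticle collagen gene col-95 from -0.75 ± 0.12 to 0.41 ± 0.12. The pseudogene WBGene00014941 went from -0.48 ± 0.14 to 1.05 ± 0.16. col-95 left the class without replicates 1 or 3 of wild type day 4 or replicates 1 or 2 of ceh-60 day 4, and the pseudogene without replicate 1 of wild type day 1 or replicates 2 or 3 of ceh-60 day 1.

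In the other direction 2 C-type lectin genes, whose family encodes sugar-binding proteins of the pathogen response, were among those named. clec-41 (WBGene00007153, chromosome V, 13134965 to 13138101, reverse strand) stood at 78.9, 66.1 and 68.4 CPM in wild type day 1 and 182, 169 and 168 in the mutant, and on day 4 at 203, 181 and 221 in wild type and 149.8, 158 and 134 in the mutant. The rise of clec-41 with age was seen in wild type (1.503 ± 0.08) and not in the mutant (-0.24 ± 0.08), and the day difference was -1.74 ± 0.12 (adjusted p = 1.78e-05). clec-47 stood at 23.8, 33.3 and 36.4 CPM in ceh-60 day 1 and 2.19, 1.82 and 3.59 in ceh-60 day 4, against 9.69, 16.4 and 17.1 and 14.1, 14.5 and 17.6 in wild type. Here wild type was level with age (0.10 ± 0.23) and the mutant changed by -3.60 ± 0.27, and the log2 fold change went from 1.11 ± 0.22 to -2.58 ± 0.27.

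C30G12.2 also fell in the mutant with age, from 22.8, 29.9 and 31.3 CPM in ceh-60 day 1 to 1.9998, 1.99 and 2.16 in ceh-60 day 4, with a day difference of -2.98 ± 0.37. The carboxylesterase gene cest-25 went from 0.80 ± 0.06 to -0.26 ± 0.06, srlf-7 from 0.50 ± 0.07 to -0.74 ± 0.07 and the short-chain dehydrogenase gene dhs-14 from 0.53 ± 0.09 to -0.88 ± 0.09. F58B4.5 went from 2.04 ± 0.14 to -0.48 ± 0.14 and C50F7.5 from 1.44 ± 0.49 to -2.06 ± 0.30. F58B4.5 left the class without replicates 1 or 2 of wild type day 4 or replicates 2 or 3 of ceh-60 day 4. C50F7.5 left it without any of 8 libraries, all but replicates 1 of wild type day 1, 2 and 3 of wild type day 4 and 2 of ceh-60 day 1. F58B4.5 shares bases with F17C11.12 and cest-25 with Y71H2AM.12, and reads over both genes of a pair were not counted.

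In all, 54.8% of tested genes changed with age in wild type and 52.6% in the mutant. Which genotype moved was read from the same fit, over the same libraries as the day difference, so these counts describe the classes and are not a separate test of them. Of the 133 genes higher in the mutant on day 1 only, 93 (69.9%) rose with age in wild type, as did 28.4% of all genes tested, and 17 fell (26.3% of all genes). In the mutant 31 of them (23.3%) rose and 62 (46.6%) fell, against 28.3% and 24.3% of all genes. Wild type thus gained lys-7, spp-1 and dod-19 with age, and the mutant on day 1 already held dod-19 near the later wild type level and spp-1 above it.

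Of the 92 genes higher on day 4 only, 66 (71.7%) fell with age in wild type, against 26.3% of all genes. In the mutant 34 of them (37%) fell and 35 (38%) rose, against 24.3% and 28.3% of all genes. Of the 54 genes lower on day 1 only, 43 (79.6%) fell in wild type. In the mutant 26 of them (48.1%) fell and 14 (25.9%) rose. Of the 42 lower on day 4 only, 28 (66.7%) rose in wild type, against 28.4% of all genes. In the mutant 20 of these (47.6%) rose and 16 (38.1%) fell. The 19 genes that went from higher to lower included 11 that rose in wild type and 14 that fell in the mutant. The 16 that went from lower to higher included 11 that fell in wild type and 10 that rose in the mutant, among the latter acs-2 by 2.33 on the log2 scale.

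**Figure D3:**
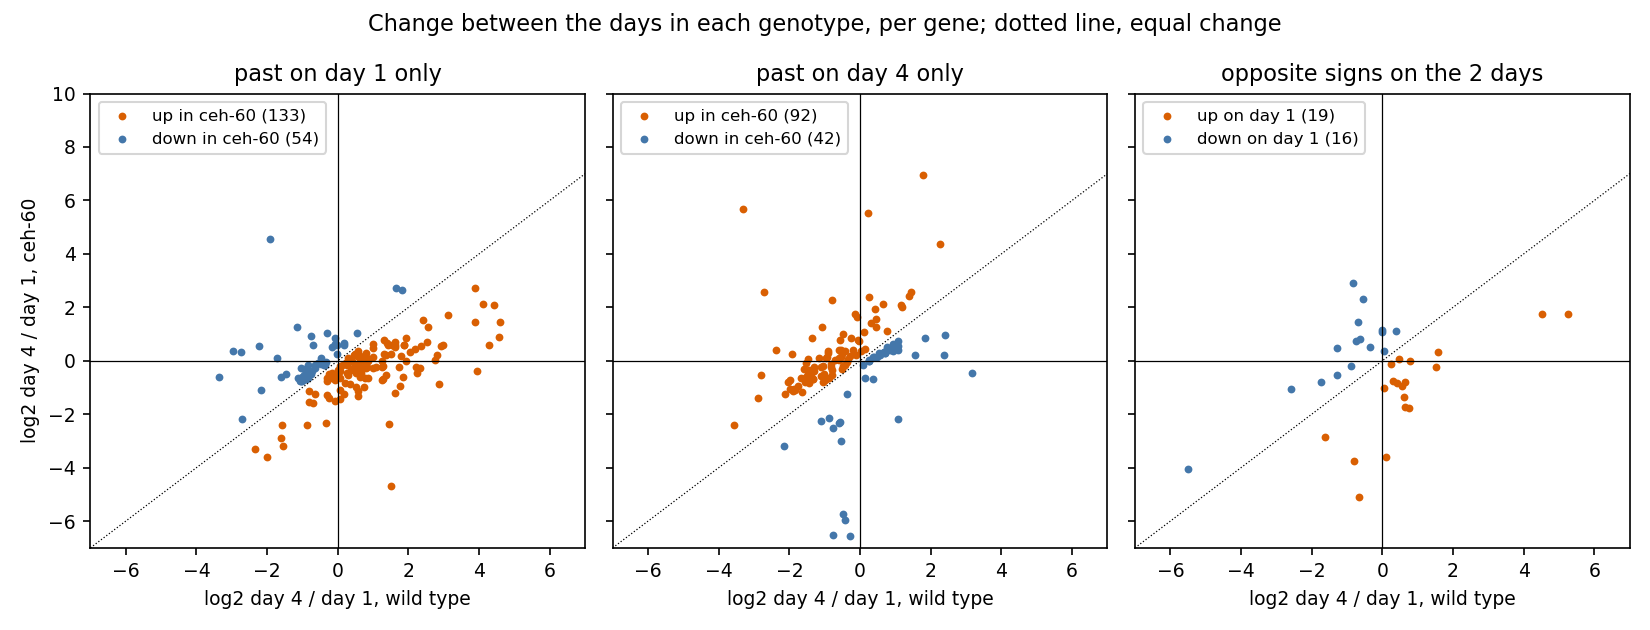
Log2 change from adult day 1 to day 4 in wild type (x axis) and in ceh-60 (y axis), 1 point a gene, for genes called on day 1 only (left), on day 4 only (middle) and on both days with opposite signs (right). Genes higher in the mutant on day 1 only lie mostly right of 0, and genes higher on day 4 only lie mostly left of 0. The side of the dotted line of equal change follows from the sign of the day difference, which was used to set the classes.

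The libraries with a pqm-1 allele share none of the 12 above, and allowed the same classes to be looked at on day 1 in animals that also carry a pqm-1 allele. This comparison was chosen with the data already seen. ceh-60(ok1485) was compared with intact ceh-60 in the pqm-1(ok485) background (strain DLS420 against DLS421) and in the pqm-1(rhd90) background (DLS423 against DLS424), 3 libraries a group. Loss of ceh-60 changed 8.97% of tested genes in ok485 and 11.9% in rhd90. pqm-1 itself had a day difference in the first table, with 1.42 ± 0.07 on day 1 and 0.88 ± 0.06 on day 4 (-0.54 ± 0.09, adjusted p = 0.00537). It stood at 11.4, 11.4 and 10.8 CPM in wild type day 1, 30.9, 29.8 and 29.2 in ceh-60 day 1, 24.7, 26.1 and 28.5 in wild type day 4 and 48.03, 46.2 and 51.2 in ceh-60 day 4.

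Of 131 genes of the class higher on day 1 only that could be tested there, 101 (77.1%) were called higher on loss of ceh-60 in pqm-1(rhd90), where 9.79% of all genes were. In pqm-1(ok485) 47 of 131 (35.9%) were called higher, against 4.76% of all genes, and 1 was called lower. The median log2 fold change was 1.09 with pqm-1 intact, 0.80 in rhd90 and 0.43 in ok485. The class was picked by the values with pqm-1 intact, and that choice can raise their median. The smaller medians in the pqm-1 strains therefore do not show a weaker effect of ceh-60 there. spp-1 was at 0.54 in rhd90 and 0.24 in ok485 on the log2 scale, and lys-7 at 0.78 and -0.11. dod-19 was at 1.73 and 1.30, and cdr-4 at 3.83 and 2.08. Without replicate 3 of wild type day 1, which shrinks the class, the called genes were 62 and 30. Such calls were not particular to this class. Of genes higher on both days and more so on day 1, 91.7% were called higher in rhd90 and 60.4% in ok485. Of those higher on both days and more so on day 4 it was 62% and 50.7%.

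Of the 54 genes lower on day 1 only, 19 (35.2%) were called lower in rhd90, where 2.07% of all genes were, and 27 (50%) in ok485, where 4.21% were. tre-2 was at -0.43 in rhd90 and -1.23 in ok485, and fat-7 at -0.92 and -1.78. These counts were 7 to 11 in rhd90 and 10 to 17 in ok485, with a smaller class, without replicate 1 or 3 of wild type day 1, any library of wild type day 4, or replicates 1 or 2 of ceh-60 day 4. That of ok485 was also 17 without replicate 1 of ceh-60 day 1, and that of rhd90 was 32 without replicate 1 of pqm-1(ok485). Of 86 genes higher on day 4 only, 4 (4.65%) were called higher in rhd90 and 1 (1.16%) in ok485, against 9.79% and 4.76% of all genes. Called lower were 6 of them (6.98%) in rhd90 and 16 (18.6%) in ok485, against 2.07% and 4.21% of all genes. Of 41 genes lower on day 4 only, 1 (2.44%) was called lower in rhd90 and 3 (7.32%) in ok485, against the same 2.07% and 4.21%, and 2 (4.88%) were called higher in rhd90.

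Of 15 genes lower on day 1 and higher on day 4, 7 (46.7%) were called lower and 1 higher in rhd90, and 9 (60%) were called lower in ok485, against 2.07% and 4.21% of all genes lower. acs-2 was at -2.22 and -1.65 and F40F8.5 at -1.37 and -1.93. Of 19 genes with the other order, 6 (31.6%) were called higher in rhd90 and 4 (21.1%) in ok485, against 9.79% and 4.76% of all genes, and the rest were not called, with clec-41 at 0.77 and 0.76 and clec-47 at 0.60 and 0.19. The counts of the day 4 classes and of the genes with opposite signs in these strains were not recomputed without single libraries. Nor were those of genes higher on both days. Whether the difference between the 2 pqm-1 alleles holds for any class was not tested.

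**Figure D4:**
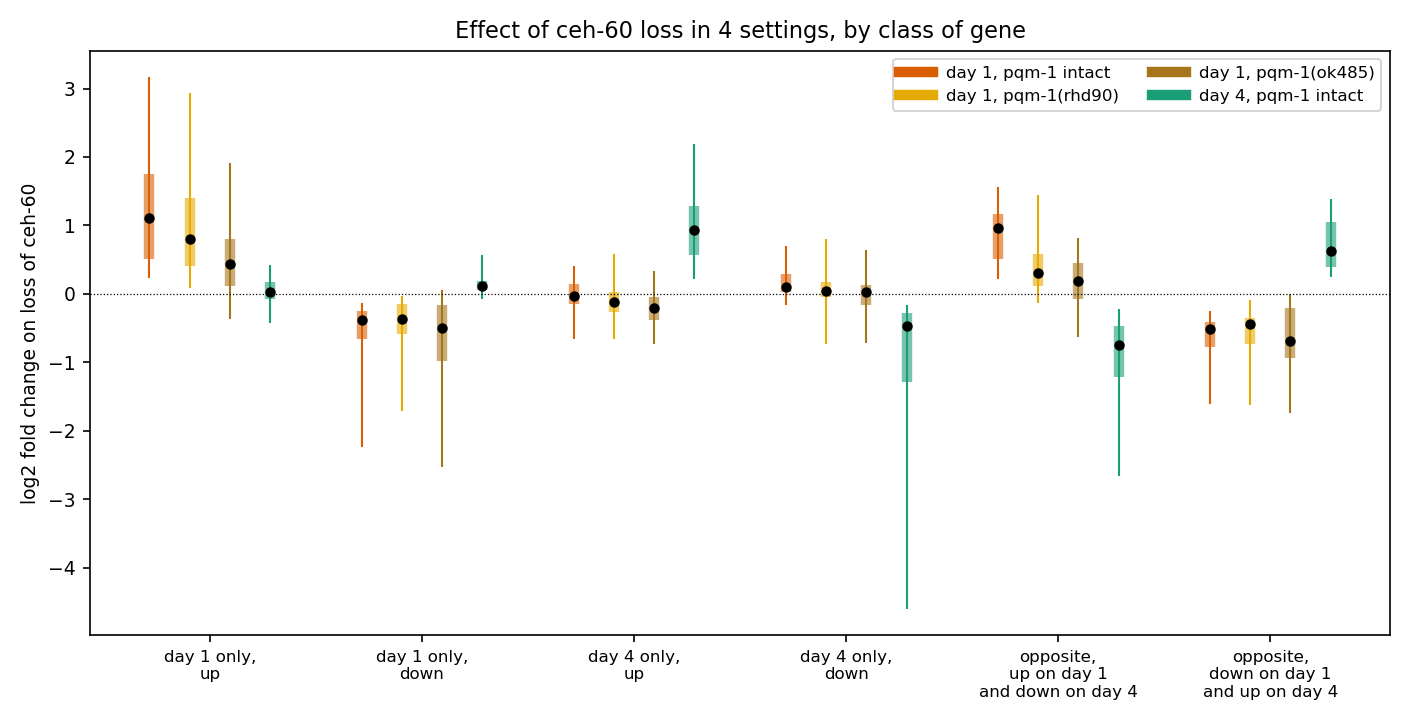
Log2 fold change on loss of ceh-60 for 6 classes of gene in 4 settings, with the median as a dot, the 25th to 75th percentile as a thick bar and the 5th to 95th as a thin line. Genes of the day 1 classes kept the sign of their median in both pqm-1 backgrounds on day 1, while those of the day 4 classes had medians of -0.21 to 0.05 there. The settings with pqm-1 intact set the classes, so sizes there cannot be compared directly with those in the pqm-1 strains.

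Gene lists for the processes that CEH-60 and PQM-1 are known for were then counted. The lists were written from general knowledge of these genes, and their membership, that of DAF-16 class I and class II included, was not checked against a source. A gene can stand in several lists, as spp-1 does, and cdr-2 was counted in both of these classes. Over all genes tested 4.04% had a called day difference and the median was 0.02 on the log2 scale. Of 28 tested DAF-16 class I targets, which rise when insulin signalling is low, 6 had a lower effect on day 4, 1 a higher one and 21 were not called, with a median of -0.56. On their own 16 of them were called higher in the mutant on day 1 (16.1% of all genes) and 12 on day 4 (16.1%). lys-7, spp-1 and cdr-2 (-1.73 ± 0.19) were the 3 clearest of those lower on day 4. cdr-2 fell out of the genes changed on both days without replicate 1 of wild type day 4 or any library of ceh-60 day 4.

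The higher one was spp-12, which was at 1.28, 2.502 and 1.01 CPM in ceh-60 day 4 and below 0.21 in every other library. Its call was lost without any of 6 libraries, namely replicates 2 and 3 of wild type day 1, replicates 1 and 2 of wild type day 4 and replicates 1 and 2 of ceh-60 day 1 (highest adjusted p = 0.126). Of 22 listed class II genes, a class known for the DNA element that PQM-1 binds, 4 were lower, 1 higher and 17 not called, with a median of -0.12. The element was not looked for in these genes. dod-19, cdr-2 and the cathepsin B gene cpr-1 (-0.72 ± 0.12) were lower and the aspartyl protease gene asp-3 (0.93 ± 0.12) higher.

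Genes of pathogen defence split in both directions. Of 56 tested lysozyme and antimicrobial peptide genes, 6 had a lower effect on day 4, 5 a higher one and 45 were not called (median -0.08). The lysozyme genes lys-7 and lys-2 (-1.34 ± 0.11) and the saposin-like spp-1 were lower, while spp-3, spp-4 (1.001 ± 0.16) and spp-5 (0.56 ± 0.09) of the same saposin-like family were higher. spp-5 rose in both genotypes and was raised in the mutant by 0.57 ± 0.06 on day 1 and 1.13 ± 0.06 on day 4, at 668, 715 and 774 CPM in ceh-60 day 4.

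Of 99 C-type lectin genes 7 were lower, 6 higher and 86 not called (median 0.14). clec-41, clec-47 and clec-5 (-1.40 ± 0.21) were lower and clec-67 (1.70 ± 0.30), clec-63 (0.76 ± 0.13) and clec-54 (0.99 ± 0.20) higher. clec-67 and clec-63 were raised on both days and more on day 4, clec-67 from 2.87 ± 0.20 to 4.57 ± 0.21 and clec-63 from 1.85 ± 0.09 to 2.61 ± 0.10. Of 18 genes of the pathway of the p38 kinase PMK-1, which drives intestinal immunity, components and targets counted together, 3 were lower (among them lys-2 and sek-1, the gene of the kinase that acts just upstream of PMK-1, at -0.42 ± 0.09) and 2 higher (clec-67 and K08D8.5 at 1.02 ± 0.16). sek-1 left the class of genes higher on day 1 only without replicate 2 of wild type day 4.

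In the response to intracellular pathogens all 4 called genes of 29 tested were lower on day 4 (median -0.23), among them pals-24, pals-23 (-0.78 ± 0.16) and skr-5. skr-5, of the Skp1 family of ubiquitin ligase subunits, was at 0, 0.0449 and 0.0977 CPM in wild type day 1 and at 1.06, 1.23 and 0.829 in the mutant, so its day difference of -3.32 ± 0.61 rests on a level near 0. Of 16 metal response genes 4 were called and all were lower on day 4 (median -0.31), with cdr-4 and cdr-2 as described. Of 25 chaperone genes of the endoplasmic reticulum 4 were called, all lower (median -0.11). pdi-3, a protein disulfide isomerase gene, went from 0.30 ± 0.04 on day 1 to -0.05 ± 0.04 on day 4. Its levels on day 1 were 843, 869.5 and 911 CPM in wild type and 1105, 1039.5 and 1074 in the mutant.

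**Figure D5:**
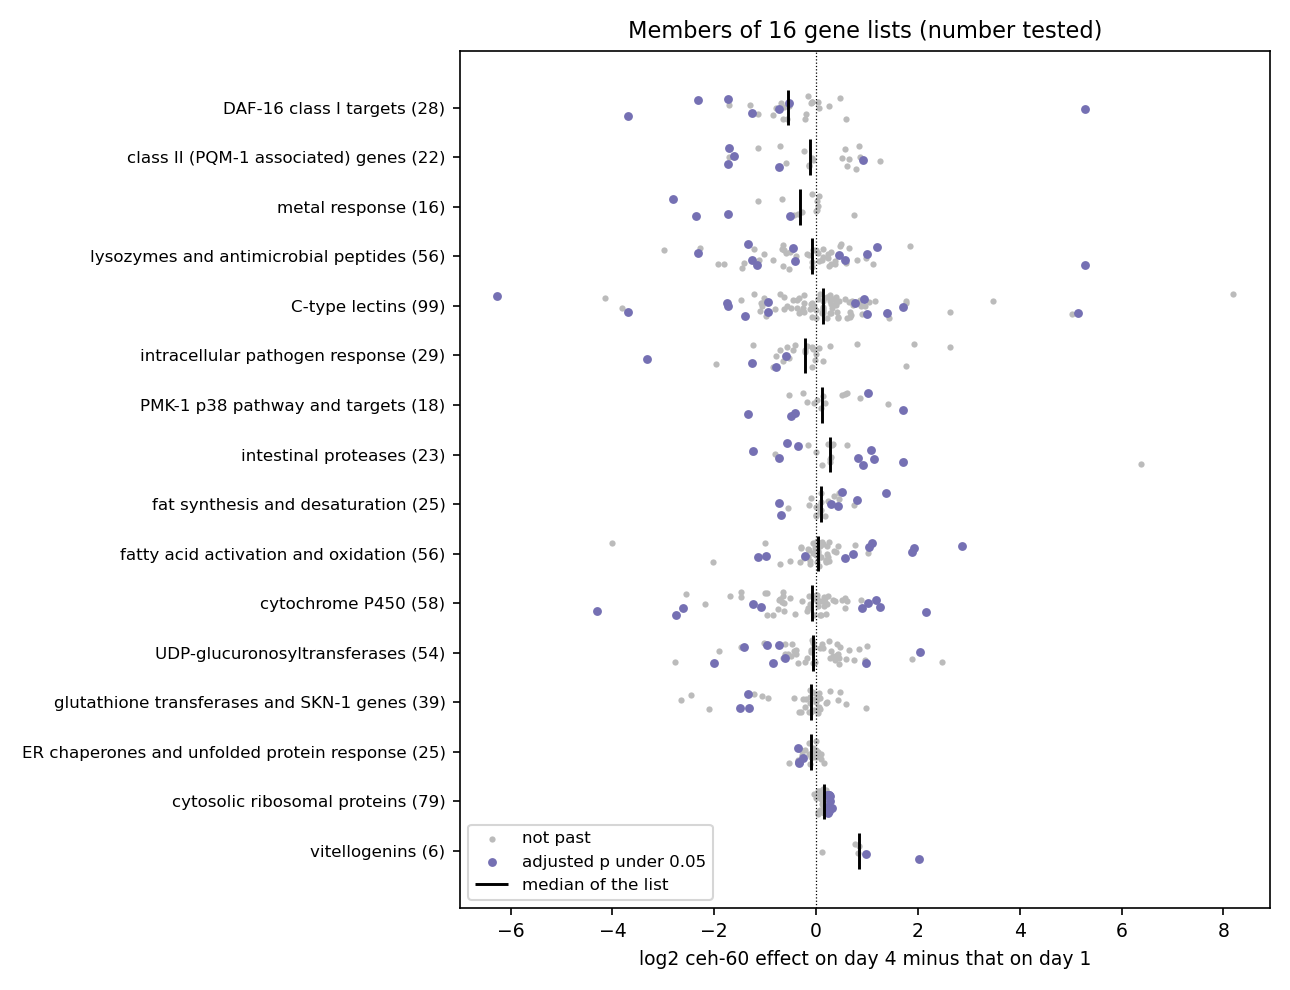
Day difference (log2 effect of ceh-60 loss on day 4 minus that on day 1) of each tested member of 16 gene lists, with called genes in purple, the others in grey and a bar at the median of the list. Called genes lie only left of 0 in the metal response, intracellular pathogen response, glutathione transferase and chaperone lists, only right of 0 in the ribosomal protein and vitellogenin lists, and on both sides in the other 10.

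Detoxification genes also went both ways. Of 58 cytochrome P450 genes 5 were lower and 5 higher (median -0.09), with cyp-33E2 (-1.24 ± 0.17), cyp-13A5 (-2.76 ± 0.51) and cyp-13A7 (-4.30 ± 0.73) lower and cyp-14A5 (1.01 ± 0.17), cyp-33C9 (0.90 ± 0.17) and cyp-25A1 (1.18 ± 0.24) higher. cyp-25A1 is an exception among them, since it was lower in the mutant on both days (-1.80 ± 0.18 and -0.62 ± 0.16). cyp-13A5, from 1.51 ± 0.42 on day 1 to -1.24 ± 0.29 on day 4, counts among the genes with opposite signs but left them without replicates 2 or 3 of wild type day 1 or replicates 1 or 2 of ceh-60 day 1.

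Of 54 UDP-glucuronosyltransferase genes, which attach sugars to foreign compounds, 6 were lower and 2 higher. ugt-62 was at 377, 324 and 319.6 CPM in ceh-60 day 1 against 89.9, 96.4 and 85.8 in wild type, and at 87.0, 58.7 and 57.2 against 77.4, 87.4 and 51.05 on day 4. The effect on ugt-62 was thus called on day 1 only, with a day difference of -2.001 ± 0.25, as was that on ugt-61 (-0.84 ± 0.17). A missed call does not show that they had no response on day 4. ugt-65 went the other way, from 1.23 ± 0.19 to 3.28 ± 0.27, as wild type fell from 5.24, 4.94 and 5.13 to 0.314, 0.353 and 0.415 CPM. All 3 called of 39 glutathione transferase and SKN-1 genes were lower, namely gst-39 (-1.50 ± 0.20), gst-10 (-1.33 ± 0.23) and gst-5 (-1.31 ± 0.26). In the intestine list 4 of 27 were lower and 2 higher, and the largest called difference there was that of pgp-1, a P-glycoprotein gene of the drug efflux family, from 2.19 ± 0.23 on day 1 to 0.28 ± 0.22 on day 4.

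Fat metabolism held genes of each kind. Of 25 genes of fat synthesis and desaturation 5 had a higher effect on day 4 and 2 a lower one (median 0.10). fat-7 was among the higher ones, while fat-5, another delta-9 desaturase gene, was lower (1.07 ± 0.08 on day 1 and 0.34 ± 0.07 on day 4). sbp-1, the SREBP transcription factor gene that drives fat synthesis, was raised on day 1 only, at 36.02, 31.2 and 32.1 CPM in wild type and 57.5, 53.99 and 49.7 in the mutant, with 0.00 ± 0.07 on day 4. fat-5 shares bases with twk-42 and sbp-1 with idpc-1 on the other strand, and counting ignored strand.

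Of 56 genes of fatty acid activation and oxidation 7 were higher on day 4, 3 lower and 46 not called (median 0.03). The acyl-CoA synthetase genes acs-2, acs-7 and acs-5 were among the higher ones. acs-5 was at 64.8, 55.2 and 61.3 CPM in wild type day 1 and 68.1, 51.3 and 66.1 in the mutant, and on day 4 at 19.7, 18.5 and 18.6 in wild type and 40.2, 40.2 and 38.2 in the mutant. The groups overlapped on day 1 and were apart on day 4, a day difference of 1.03 ± 0.13. acs-7 was raised on both days, by 0.72 ± 0.12 and 2.65 ± 0.14. acdh-1 and the peroxisomal acyl-CoA oxidase gene acox-1.5 (-0.99 ± 0.13) were lower.

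Of 23 intestinal protease genes 5 were higher on day 4, 4 lower and 14 not called (median 0.27). The aspartyl protease genes asp-1 (1.07 ± 0.12), asp-3 and asp-4 were higher, and asp-14 (-1.24 ± 0.25) and cpr-1 lower. asp-1 was raised in the mutant by 0.85 ± 0.09 on day 1 and 1.92 ± 0.09 on day 4, as wild type fell from 1708, 1636 and 1718 to 516, 494 and 441 CPM. asp-14 shares bases with fah-1, and its effects of opposite sign were called on both days in 5 of the 12 runs that leave out 1 library.

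The vitellogenin genes, which CEH-60 is best known to activate, were lower in the mutant on both days, 6 of 6 each time. All 6 had a positive day difference (median 0.83), of which those of vit-2 (0.98 ± 0.24) and vit-3 (2.01 ± 0.45) were called. vit-3 was at 2402, 2430.5 and 2478 CPM in wild type day 1 and 22.9, 85.4 and 59.0 in the mutant, and on day 4 at 715, 851 and 596 in wild type and 63.4, 86.5 and 50.3 in the mutant. The mutant levels overlapped between the days, and wild type fell by 1.76 on the log2 scale. The call of vit-3 was lost without any of 7 libraries, namely replicates 1 and 3 of wild type day 1, 1 and 3 of wild type day 4, 3 of ceh-60 day 1, and 1 and 2 of ceh-60 day 4 (highest adjusted p = 0.0796). That of vit-2 was lost without any of 9, namely all 6 of wild type and those same 3 of the mutant (highest adjusted p = 0.119). Reads shared by near-identical vit genes were not counted.

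The 79 cytosolic ribosomal protein genes moved little: 78 had a positive day difference, 10 were called, none negative, and the median was 0.16. Their log2 fold changes had medians of -0.11 on day 1 and 0.05 on day 4, and all 79 were called lower on day 4 than on day 1 in both genotypes. Of the 3 of smallest p, rpl-30 was at 0.26 ± 0.06, rps-13 at 0.26 ± 0.06 and rps-17 at 0.25 ± 0.06, and none kept its call without each library. rpl-30 kept it only without replicate 1 of wild type day 1 or replicate 3 of ceh-60 day 4, and rps-13 only without replicate 3 of ceh-60 day 1 or of ceh-60 day 4. rps-17 lost it without replicates 2 or 3 of wild type day 1, any library of wild type day 4, or replicates 1 or 2 of ceh-60 day 4. These small shifts move with the scaling: with RLE size factors the median of all genes went down by 0.02, and rpl-30 and rps-13 were no longer called.

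Several lists held no gene with a called day difference: 31 body wall muscle genes, 24 genes of neurons, 11 of the pharyngeal muscle, 29 of oocyte and eggshell, 53 of the V-ATPase, lysosome and autophagy, 24 of lipid binding and transport, and 13 insulin-like peptide genes. Over all genes tested 4.04% had a called day difference, a share at which lists of this length would hold few or none. In the body wall muscle list 15 of 31 genes were called higher in the mutant on day 1 and 3 on day 4. Of all genes 16.1% were called higher on each of the days. The day difference was negative in 25 of the 31 muscle genes, with a median of -0.18. A difference under the threshold does not show that these genes responded alike on the 2 days.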

How the data were processed

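Whole-animal RNA was made into mRNA libraries with the TruSeq RNA Library Prep Kit v2, per the labels' protocols, a kit that does not mark strand, and aligned with STAR 2.5.4, per the submitters' processing notes. The deposited values are raw counts per gene, made by the authors with featureCounts 1.5.2 on the annotation of WormBase release 260, per the file headers. The command in the header sets no option for strand, multi-mapping reads or reads over several genes. By the counter's defaults such multiple reads are not counted, which lowers counts of near-identical and overlapping genes. Beside the overlaps given above, acs-7, atic-1, col-158, cysl-2, enpl-1, hsp-17, pho-1, R09E10.6 and skr-5 share exon bases with a gene on the other strand.

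Totals ran from 21031225 to 32598349 counts in the 12 libraries used and from 18809461 to 30921124 in the second table. Counts were analysed in R 4.3.3 with edgeR 4.0.16 (TMM scaling, low-count filter by group, quasi-likelihood test, Benjamini-Hochberg adjustment at 0.05), with 1 fit over 4 groups and 8 residual degrees of freedom. Libraries were normalised within each table only, and each table was fitted by itself. The code was checked on simulated counts. Replicates were compared, and no 2 libraries of a group agreed within sampling noise. A gene responded on 1 day only when its day difference and 1 day's effect were called and the other day's effect was not. Comparisons between groups share libraries.

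The question, the classes and the gene lists were chosen with earlier results of these data known. Named genes were those with the 8 largest differences in each direction and the 5 of smallest p in each class and direction, both at a mean of at least 5 CPM and with genotypes that did not overlap on at least 1 day, and up to 3 members of each list in each direction by p, plus pqm-1 and ceh-60. The closing section lists every gene named by this rule that had a called difference. The lists were not checked against a source. R09E10.6 and the genes under other observations were chosen after their values were seen. Alternatives were RLE size factors, DESeq2 1.42.0, no filter on low counts, a replicate block, a 2-fold minimum, a stricter definition of 1 day only and leaving out each library. Replicate numbers in the titles were not treated as pairs, since the labels state no block. Same-numbered libraries deviated together in some pairs, and 8 of 12 libraries correlated best with their own number. The fit with a replicate block, which called 680 differences against 531, is given in the closing section.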

Additional observations from a re-analysis of the deposited data

Results flagged for a closer look

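For each gene below, loss of ceh-60 acted differently on adult day 1 and day 4 by the test of the difference itself (the interaction term of edgeR's quasi-likelihood fit, Benjamini-Hochberg adjusted p under 0.05 over 13137 genes). The values are log2 effects on day 4 minus those on day 1. Groups of 3 libraries are too small to look for single libraries that stand apart gene by gene.

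Of genes higher in the mutant on day 1 only, the difference was -0.72 in COX3, -0.215 in acdh-10, -2.81 in cdr-4, -2.61 in cyp-13A6, -4.3 in cyp-13A7, -1.61 in dod-19 and -3.7 in dod-3. Further values were -0.254 in enpl-1, -1.31 in gst-5, -0.355 in hsp-3, -2.45 in irg-2, -0.949 in lec-6, -2.32 in lys-7 and -1.02 in nhr-6. Then came -6.2 in nhx-6, -3.13 in oac-14, -1.25 in pals-24, -0.343 in pdi-3, -1.91 in pgp-1, -0.694 in sbp-1 and -0.286 in sdha-1. The last were -0.417 in sek-1, -1.26 in spp-1, -3.84 in tbb-6, -0.843 in ugt-61 and -2 in ugt-62.

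Of genes lower on day 1 only, the difference was 0.363 in C53H9.2, 0.51 in acl-1, 1.01 in calu-1, 0.286 in csr-1, 0.297 in dnj-13, 1.37 in fat-7 and 0.462 in rpn-6.2. Next came 0.261 in rps-13, 0.254 in rps-17, 0.624 in tre-2 and 0.77 in vrp-1.

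Of genes higher on day 4 only, the difference was 1.03 in acs-5, 0.813 in asp-4, 0.839 in atic-1, 5.15 in clec-174, 0.46 in col-101, 1.48 in col-158 and 1.01 in cyp-14A5. Added to these were 2.17 in cyp-35A5, 1.08 in cysl-2, 0.613 in dmd-7, 2.09 in drd-50, 0.296 in fat-1, 1.45 in fbl-1 and 0.922 in gldc-1. Then came 0.926 in hpd-1, 0.625 in nas-37, 0.264 in rpl-30, 0.401 in sdz-27, 5.29 in spp-12, 1.2 in spp-3 and 0.979 in ugt-43.

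Of genes lower on day 4 only, the difference was -0.449 in F31E8.4, -5.23 in R09E10.6, -0.542 in W09C3.7, -1.07 in Y105C5B.15, -1.72 in ZK593.3, -1.15 in acdh-1 and -0.238 in nhr-46. Also called were -3.25 in vmo-1.

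Of genes higher on day 1 and lower on day 4, the difference was -2.98 in C30G12.2, -1.5 in C49G7.10, -3.5 in C50F7.5, -2.52 in F58B4.5, -1.24 in asp-14, -1.06 in cest-25 and -1.74 in clec-41. Others were -3.7 in clec-47, -2.76 in cyp-13A5, -1.42 in dhs-14 and -1.24 in srlf-7.

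Of genes lower on day 1 and higher on day 4, the difference was 2.14 in F40F8.5, 1.53 in WBGene00014941, 2.86 in acs-2, 1.45 in asah-2 and 1.16 in col-95.

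Of genes higher on both days and more so on day 1, the difference was -0.988 in acox-1.5, -1.73 in cdr-2, -1.4 in clec-5, -0.724 in cpr-1, -0.568 in cpr-4, -1.24 in cyp-33E2 and -0.73 in fat-5. Next came -0.523 in ftn-2, -0.378 in gas-1, -1.33 in gst-10, -1.5 in gst-39, -0.578 in hsp-17, -1.34 in lys-2 and -0.784 in pals-23. Then came -0.539 in pqm-1, -3.32 in skr-5, -0.974 in ugt-19 and -0.489 in vhp-1.

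Of genes higher on both days and more so on day 4, the difference was 1.02 in K08D8.5, 1.93 in acs-7, 1.42 in alh-13, 1.07 in asp-1, 0.929 in asp-3, 0.992 in clec-54 and 0.76 in clec-63. Added to these were 1.7 in clec-67, 0.905 in cyp-33C9, 0.962 in kynu-1, 0.753 in pho-1, 1 in spp-4, 0.561 in spp-5 and 2.05 in ugt-65.

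Of genes lower on both days and more so on day 1, the difference was 1.18 in cyp-25A1, 0.98 in vit-2 and 2.01 in vit-3.

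Beside the genes whose lost calls are given in the text above, the calls of acdh-10, acl-1, col-101, col-158, cpr-4, csr-1, dnj-13, enpl-1, fat-1, ftn-2, gas-1, hsp-3, nas-37, nhr-46, nhr-6, pho-1, rpn-6.2, sdz-27, ugt-19, ugt-43 and vhp-1 were lost without at least 1 of the 12 libraries. The class under which a gene is listed was less steady than its call: 169 of the 531 called genes kept their class without each library in turn. Among those listed, cyp-33E2 kept its class in 5 of these 12 runs and gst-39 in 7. No explanation for any of these differences was tested.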

How the results depend on the processing

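Of 19 counts, all stayed within 1.5 times under RLE size factors, and no count or named gene changed sign under any alternative run. DESeq2 moved 4 counts, the first to 87 genes lower on day 4 only. The last 3 were of day 1 only genes called in the same direction in the second table. They were 72 higher and 49 lower in pqm-1(ok485) and 43 lower in pqm-1(rhd90). Without a filter on low counts 905 differences were called, 567 of them lower. There were 224 genes higher on day 1 only, 138 lower on day 4 only and 31 going from higher to lower. Of unequal size in 1 direction were 172 (more on day 1) and 113 (more on day 4). Day 1 only genes called in the same direction in the second table were 75, 53 and 29 (ok485 higher, ok485 lower, rhd90 lower). A minimum of 2-fold left 236 differences, 92 higher and 144 lower. With the other day's interval held within 1.5-fold, 82 genes were higher on day 1 only and 27 lower on day 4 only. The cause of these shifts was not tested.

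Leaving out 1 library at a time gave 306 to 567 differences, 116 to 219 higher and 169 to 348 lower. It gave 75 to 164 genes higher and 15 to 60 lower on day 1 only, 38 to 80 higher and 19 to 71 lower on day 4 only, 11 to 26 going from higher to lower, 9 to 17 from lower to higher, and 62 to 105 and 42 to 65 of unequal size. Calls were 1899 to 3708 on day 1, 2450 to 3259 on day 4, 6408 to 7675 with age in wild type and 5971 to 6882 in the mutant. Genes of the day 1 only classes called in the same direction in the second table numbered 30 to 60 (higher) and 10 to 29 (lower) in ok485. In rhd90 they numbered 62 to 124 and 7 to 32. Where this left a group with 2 libraries, the fit pooled the spread over all groups.

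The fit with the replicate block called 680 differences. It moved 3 counts, all of day 1 only genes called in the same direction in the second table. They became 75 (ok485 higher), 47 (ok485 lower) and 39 (rhd90 lower). The 18 correlations between same-numbered libraries ran from -0.197 to 0.434, with 8 over 0.1, and 8 of 12 libraries correlated best with their own number. Of 118 named genes, 6 were no longer called with RLE size factors (col-101, csr-1, pho-1, rpl-30, rps-13 and ugt-43) and 4 without the filter (csr-1, rpl-30, rps-13 and rps-17), and none was lost with DESeq2 or the block. Genes near 0 CPM carry large errors, and there a difference was detectable only when it was large.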

Other observations

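The 5 genes that follow, of amino acid breakdown and related metabolism, were chosen after their values were seen for a larger effect on day 4, and no list of such genes was counted. kynu-1 and alh-13 were called higher in the mutant on both days, and the others on day 4 only. hpd-1, which acts in tyrosine breakdown, went from 0.23 ± 0.08 on day 1 to 1.16 ± 0.08 on day 4, as wild type fell by 1.53 on the log2 scale and the mutant by 0.60. gldc-1, of the glycine cleavage system, went from 0.14 ± 0.10 to 1.06 ± 0.10, kynu-1, the kynureninase gene of tryptophan breakdown, from 0.20 ± 0.07 to 1.17 ± 0.07, and alh-13, of the aldehyde dehydrogenase family, from 0.36 ± 0.11 to 1.78 ± 0.11. cysl-2, of the cysteine synthase family, went from 0.28 ± 0.11 to 1.36 ± 0.10. Without each library in turn these 5 genes kept a called day difference, but all except gldc-1 changed class without some, hpd-1 without 5 libraries and kynu-1 without 7.

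COX3, encoded in mitochondrial DNA, was at 927, 879 and 901 CPM in wild type day 1 and 1534, 1421 and 1644 in the mutant, and on day 4 at 1039.6, 1067 and 1124 in wild type and 1129.6, 1052 and 1149.8 in the mutant, a day difference of -0.72 ± 0.08. It was 1 of 2 called among 14 tested mitochondrial genes (14.3%), against 4.04% of all genes tested.

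On the nuclear chromosomes the share of tested genes with a called day difference ran from 1.94% on chromosome I to 5.72% on chromosome V. It was 2.85% on chromosome III and 5.36% on chromosome X, against 4.04% of all genes tested. Of the 531 called genes 73 (13.7%) lay next to a tested gene called in the same direction, and 7.83% of all tested genes lay next to any called gene. There were 4 runs of at least 3 neighbours called in 1 direction. On chromosome II cyp-13A5, cyp-13A6 and cyp-13A7 were followed by ZK938.1. On chromosome IV the lectin genes clec-67, clec-174 and clec-72 formed a run with higher effects on day 4. On chromosome V the runs were C49G7.12, C49G7.10 and irg-2, and vmo-1, Y38H6C.21 and Y38H6C.23, both with lower effects on day 4. irg-2, a gene of the infection response, went from 2.02 ± 0.19 on day 1 to -0.43 ± 0.17 on day 4 and left the genes called on day 1 only without replicate 2 of wild type day 1. Near-identical neighbours share reads that were not counted.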
